A study of Mus musculus with 12 samples.

Results

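The 10 genes described here encode the FOS and JUN subunits of the transcription factor AP-1 (Fos, Fosb, Fosl1, Fosl2, Jun, Junb and Jund) and 3 further products of the immediate early response (Egr1, Dusp1 and Ier3). They were chosen, with earlier results of these data known, by symbol among the 55281 genes of the deposited count table. Each symbol matched 1 row. All 10 passed the filter on low counts, which left 18427 genes for testing. Whole gonadal white adipose tissue (GWAT) of male mice aged 22 to 24 weeks had been sequenced as bulk RNA, with 4 groups of 3 libraries and tissue of 3 mice pooled in each library. WT mice were Hoip fl/fl AdipoQ.Cre- and HoipA-KO mice were Hoip fl/fl AdipoQ.Cre+, so both genotypes carried the floxed alleles of Hoip (Rnf31). Starting at 6 weeks of age, mice of each genotype received a control diet (CD) with 14% fat, or a high-fat diet (HFD) with 60% fat, for 16 weeks. Cre was driven by the adiponectin promoter, which acts in mature adipocytes, whereas the RNA came from whole tissue. Fewer cells of a type and less RNA per cell cannot be told apart in such data.

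AP-1 binds DNA as a pair of leucine zipper proteins, either a JUN with a FOS protein or 2 JUN proteins. FOS proteins cannot pair with themselves, and JUNB and JUND are generally weaker activators than JUN. Most of these genes are transcribed within minutes of a stimulus, through MAP kinases that act on factors already present in the cell, and DUSP1 removes the phosphates that activate these kinases. In adipose tissue they are induced by cytokines, growth factors, feeding and tissue handling, in adipocytes as well as in immune and stromal cells.

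Libraries held between 30513500 and 60540260 estimated counts, and 3 counts, taken as the floor of a library, corresponded to 0.0534 to 0.0987 CPM, the count scaled to the normalised size of its library. Within the WT HFD, HoipA-KO CD and HoipA-KO HFD groups, log2(CPM + 1) of libraries correlated across genes with r of 0.971 or more, as compared to 0.793 to 0.904 within WT CD. WT CD replicate 3 had r of 0.793 and 0.795 with the other WT CD libraries and was left out of the study's own comparisons, so that tests used 11 libraries, and values over all 12 are given beside them. WT CD replicate 2 carried 14696 CPM of 8 epididymis markers in sum, whereas WT CD replicate 1 had 0.859 CPM and HoipA-KO HFD replicate 1 had 1298 CPM. The targeted gene Rnf31 did not mark the genotype in whole tissue, with 12.6 to 20.7 CPM in WT CD and 17.9 to 21.7 CPM in HoipA-KO CD. On HFD, Rnf31 had 17.9 to 19.8 CPM in WT and 19.1 to 22.5 CPM in HoipA-KO.

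By the GENCODE M21 annotation of GRCm38, Fos lies at chr12:85473890-85477273 on the plus strand, Fosb at chr7:19302696-19310051 on the minus strand, Fosl1 at chr19:5447547-5455946 on the plus strand and Fosl2 at chr5:32135801-32157842 on the plus strand. Jun is at chr4:95049034-95052222 on the minus strand and overlaps the antisense gene Junos. Junb is at chr8:84974484-84978718 on the minus strand and overlaps Prdx2, which is on the plus strand. Jund is at chr8:70698949-70700616 on the plus strand and overlaps the antisense gene Gm11175, and Ier3 is at chr17:35821684-35822923 on the plus strand. Dusp1, on the minus strand, has a long annotated span of chr17:26505590-26562128 that takes in Ergic1, and Fosl1 overlaps Ccdc85b on the other strand. The library kit retained the strand of the RNA, but the strand setting of the counting is not given in the sources used here, so reads of these overlapping pairs may have been shared.

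The 250 bases before the start site are shown for Fos and Junb, whose levels differed between genotypes in every setting on CD, and for Dusp1, the only one of 8 members with a complete cAMP response element in this window. They are from the RefSeq promoter table of GRCm38.p6, which held 8 of the 10 members and not Fosl1 or Egr1. Each is written 5′ to 3′ on the gene's strand, and capitals mark the AP-1 site TGACTCA, the cAMP response element TGACGTCA and its core TGACG, the TATA box TATAAA, the CArG box bound by serum response factor and the NF-kB site. Both strands were searched, and TGACG lies within TGACGTCA.
Fos, chr12:85473640-85473889, plus strand: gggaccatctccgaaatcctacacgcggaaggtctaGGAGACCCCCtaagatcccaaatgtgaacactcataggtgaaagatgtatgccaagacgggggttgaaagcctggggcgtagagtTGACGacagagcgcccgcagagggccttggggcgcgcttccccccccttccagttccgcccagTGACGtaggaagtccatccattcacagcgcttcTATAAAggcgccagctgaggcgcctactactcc
Junb, chr8:84978749-84978998, minus strand: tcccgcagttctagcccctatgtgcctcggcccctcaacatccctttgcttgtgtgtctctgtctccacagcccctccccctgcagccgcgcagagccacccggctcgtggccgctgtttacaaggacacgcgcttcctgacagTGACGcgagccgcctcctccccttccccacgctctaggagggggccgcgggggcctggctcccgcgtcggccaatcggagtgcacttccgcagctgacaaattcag
Dusp1, chr17:26508473-26508722, minus strand: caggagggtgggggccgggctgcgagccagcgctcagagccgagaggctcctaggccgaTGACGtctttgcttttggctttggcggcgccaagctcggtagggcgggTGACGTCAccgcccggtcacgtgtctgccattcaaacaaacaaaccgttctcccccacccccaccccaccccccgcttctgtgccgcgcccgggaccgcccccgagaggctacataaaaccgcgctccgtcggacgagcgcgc
The core TGACG was present in the windows of Fos, Fosb, Junb and Dusp1 and in 17.8% of all 32851 windows of this length. Fos had it at positions -129 to -125 and -66 to -62 from the start, upstream of a TATA box at -33 to -28, and Junb had it at -106 to -102. Dusp1 had the core at -191 to -187 and the complete element at -143 to -136, a sequence held by 1.55% of all windows. The NF-kB site was found in Fos, Fosb, Fosl2 and Ier3 and in 7.25% of all windows, and that of Fos, at -214 to -205, was on the opposite strand. None of the 8 windows held TGACTCA or a CArG box, which 4.46% and 1.47% of all windows held, and TATAAA was in 12.4%. A match is a run of letters and not evidence of binding.

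Per kilobase of exon, Jund had the highest level of the 10 genes in every group and Fosb or Fosl1 the lowest. In WT CD, the mean was 70.2 ± 20.7 CPM per kb for Jund (SD, n = 3, as for the values that follow), 20.8 ± 8.92 for Jun, 18.6 ± 8.80 for Dusp1 and 10.8 ± 4.02 for Fos. Jun and Dusp1, Dusp1 and Fos, and Fos and Egr1, each next to the other in this order, did not differ beyond the larger SD. Egr1 at 8.22 ± 3.60, Junb at 7.67 ± 1.07 and Ier3 at 6.92 ± 1.39 CPM per kb were also within each other's spread. Fosl2 had 3.76 ± 1.42, Fosb 0.80 ± 0.53 and Fosl1 0.36 ± 0.41 CPM per kb. In HoipA-KO CD the order changed, with Jund at 121 ± 33.1, Fos second at 69.3 ± 11.6, Dusp1 at 48.0 ± 8.39, Junb at 41.5 ± 7.52 and Jun at 39.7 ± 2.54 CPM per kb, of which the last 3 lay within the SD of Dusp1. WT HFD had Jund at 64.3 ± 8.44, Dusp1 at 31.1 ± 7.37, Fos at 28.1 ± 5.82, Jun at 25.6 ± 0.63 and Junb at 16.7 ± 3.38 CPM per kb, and Dusp1, Fos and Jun did not differ beyond their SD. In HoipA-KO HFD, Jund had 107 ± 11.3, Fos 53.1 ± 13.6, Dusp1 42.6 ± 15.3, Junb 33.0 ± 3.28 and Jun 32.8 ± 4.03 CPM per kb, and each neighbouring pair after Jund was within its SD. The other 5 genes stayed below these in both HFD groups, from Egr1 at 9.28 ± 1.43 and 13.8 ± 0.33 down to Fosb at 0.52 ± 0.22 and 0.62 ± 0.15 CPM per kb.

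To ask how loss of HOIP in adipocytes altered these genes without dietary challenge, HoipA-KO was first compared to WT on CD. Transcripts of Fos, Fosl1, Junb, Jun and Dusp1 were higher in HoipA-KO GWAT, whereas none of the 10 members was lower. Thus 5 of 10 members were called higher (edgeR's quasi-likelihood test, p-values adjusted by Benjamini-Hochberg across every tested gene), as compared to 18.9% of all genes tested that were called higher and 18.8% called lower. Over all 12 libraries, 7 members were called higher, adding Jund and Egr1, as compared to 16.3% of genes. The median log2 fold change was 0.92 over the members and -0.055 over all genes. In 6 members every HoipA-KO CD library was above every one of the 3 WT CD libraries, which held for 20.8% of all genes.

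**Figure D1:**
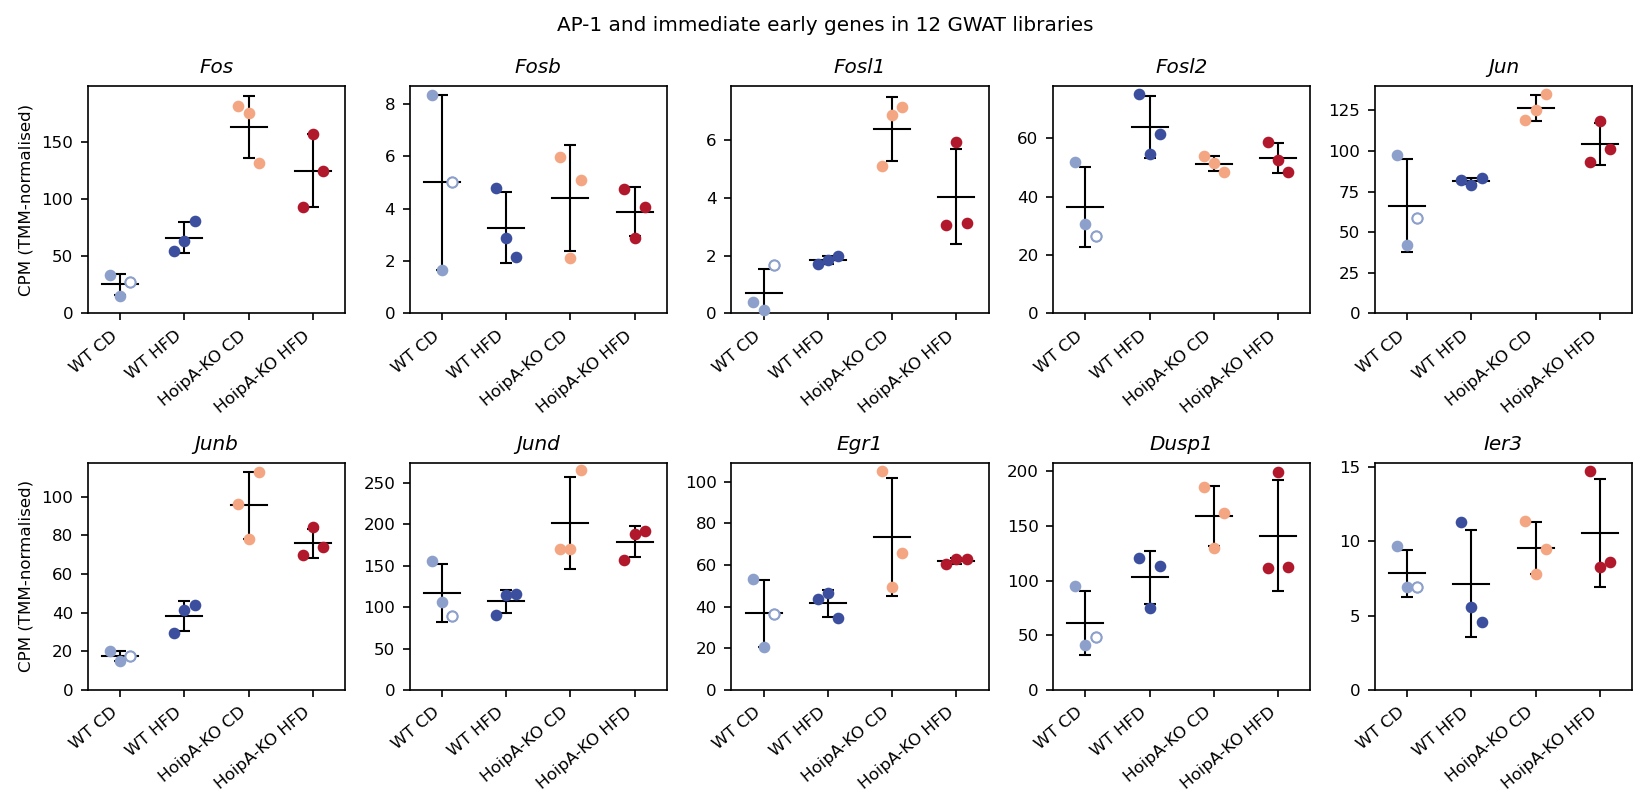
TMM-normalised CPM (y axis, linear, starting at 0) of each gene in the 3 libraries of each group (points), with the group mean (line) and SD (bar); the open circle is WT CD replicate 3, which is shown but was left out of the main tests. Fos ran from 132 to 182 CPM in HoipA-KO CD and from 15.1 to 33.6 CPM in WT CD, while Fosb overlapped among all groups.

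Among the FOS genes, Fos, the main inducible partner of JUN, had 33.6, 15.1 and 27.5 CPM in the WT CD libraries and 182, 175 and 132 CPM in HoipA-KO CD. The groups were far apart, with the lowest HoipA-KO library well above the highest WT one. The difference was 6.71-fold, a log2 fold change of 2.75 ± 0.38 (SE; edgeR adjusted p = 0.00087), with a 95% interval of 1.89 to 3.61. Fosl1, which encodes FRA1, a FOS protein without the activating C-terminal part of FOS, had 0.382, 0.128 and 1.66 CPM in WT CD and 5.12, 6.88 and 7.16 CPM in HoipA-KO CD. Its WT CD values rested on 16, 6 and 91 counts, and replicate 3 was several times above the other libraries of its group. The log2 fold change of Fosl1 was 4.65 ± 0.55 without that library (edgeR adjusted p = 0.00051) and 3.13 ± 0.75 with it (edgeR adjusted p = 0.0116). These correspond to 25.1-fold and 8.74-fold, and both groups remained separate in either case.

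The other FOS genes differed less. Fosb, a close relative of Fos, had 8.33, 1.66 and 5.01 CPM in WT CD and 5.97, 2.12 and 5.09 CPM in HoipA-KO CD. These ranges overlapped fully, and the log2 fold change was -0.18 with a 95% interval of -1.64 to 1.27 (edgeR adjusted p = 0.845). Fosl2, which encodes FRA2, had 52.0, 30.7 and 26.4 CPM in WT CD and 53.9, 51.5 and 48.6 CPM in HoipA-KO CD. The highest WT library was within the HoipA-KO range, and the log2 fold change was 0.32 with an interval of -0.18 to 0.81 (edgeR adjusted p = 0.281).

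Of the JUN genes, Junb, an inducible JUN protein, had 20.0, 15.1 and 17.9 CPM in WT CD and 96.1, 78.0 and 113 CPM in HoipA-KO CD. The libraries of WT lay close together and far below those of HoipA-KO. Junb was 5.46-fold higher, a log2 fold change of 2.45 ± 0.24 (edgeR adjusted p = 0.00045). Jun itself had 97.9, 42.4 and 59.0 CPM in WT CD and 119, 125 and 135 CPM in HoipA-KO CD. The groups did not overlap, but WT CD replicate 1 came near the HoipA-KO libraries, and the log2 fold change was 0.85 ± 0.29 (edgeR adjusted p = 0.0421). Jund, the JUN gene with the most constant expression in most tissues, had 156, 107 and 88.8 CPM in WT CD and 170, 170 and 266 CPM in HoipA-KO CD. Its groups did not overlap either, with a log2 fold change of 0.62 ± 0.25 over 11 libraries (edgeR adjusted p = 0.0754) and 0.79 ± 0.25 over 12 (edgeR adjusted p = 0.0338).

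Dusp1, the MAP kinase phosphatase, had 94.9, 41.3 and 48.4 CPM in WT CD and 185, 130 and 162 CPM in HoipA-KO CD, again without overlap. It was 2.34-fold higher, a log2 fold change of 1.23 ± 0.40 (edgeR adjusted p = 0.0372). Egr1, a zinc finger transcription factor, had 53.1, 20.8 and 36.7 CPM in WT CD and 105, 49.6 and 65.7 CPM in HoipA-KO CD. Here WT CD replicate 1 exceeded HoipA-KO CD replicate 2, and the log2 fold change of Egr1 was 0.99 ± 0.40 over 11 libraries (edgeR adjusted p = 0.0731) and 0.99 ± 0.34 over 12 (edgeR adjusted p = 0.0445). Ier3, an NF-kB target that modulates apoptosis, had 9.64, 6.93 and 6.91 CPM in WT CD and 11.3, 7.82 and 9.50 CPM in HoipA-KO CD. The ranges overlapped, and the log2 fold change of Ier3 was 0.21 with an interval of -0.70 to 1.12 (edgeR adjusted p = 0.711).

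The calls of Fos, Fosl1 and Junb on CD held without each of the 11 libraries in turn, with log2 fold changes of 2.28 to 3.43 for Fos, 4.06 to 5.61 for Fosl1 and 2.22 to 2.66 for Junb. Those of Jun and Dusp1 depended on single libraries. Without WT CD replicate 2, the library with epididymal transcripts, the log2 fold change of Jun was 0.38 (edgeR adjusted p = 0.133) and that of Dusp1 0.75 (edgeR adjusted p = 0.187). Without WT CD replicate 1, it was 1.57 for Jun, 1.94 for Dusp1 and 1.82 for Egr1, and all 3 were called. Jun was also lost without any library of WT HFD or HoipA-KO CD and without HoipA-KO HFD replicates 1 or 3, with log2 fold changes of 0.72 to 0.86. Dusp1 was lost without any HoipA-KO CD library, WT HFD replicate 3 or HoipA-KO HFD replicate 3, with log2 fold changes of 1.02 to 1.35. Where 1 WT CD library is left, its spread is taken from the other groups.

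**Figure D2:**
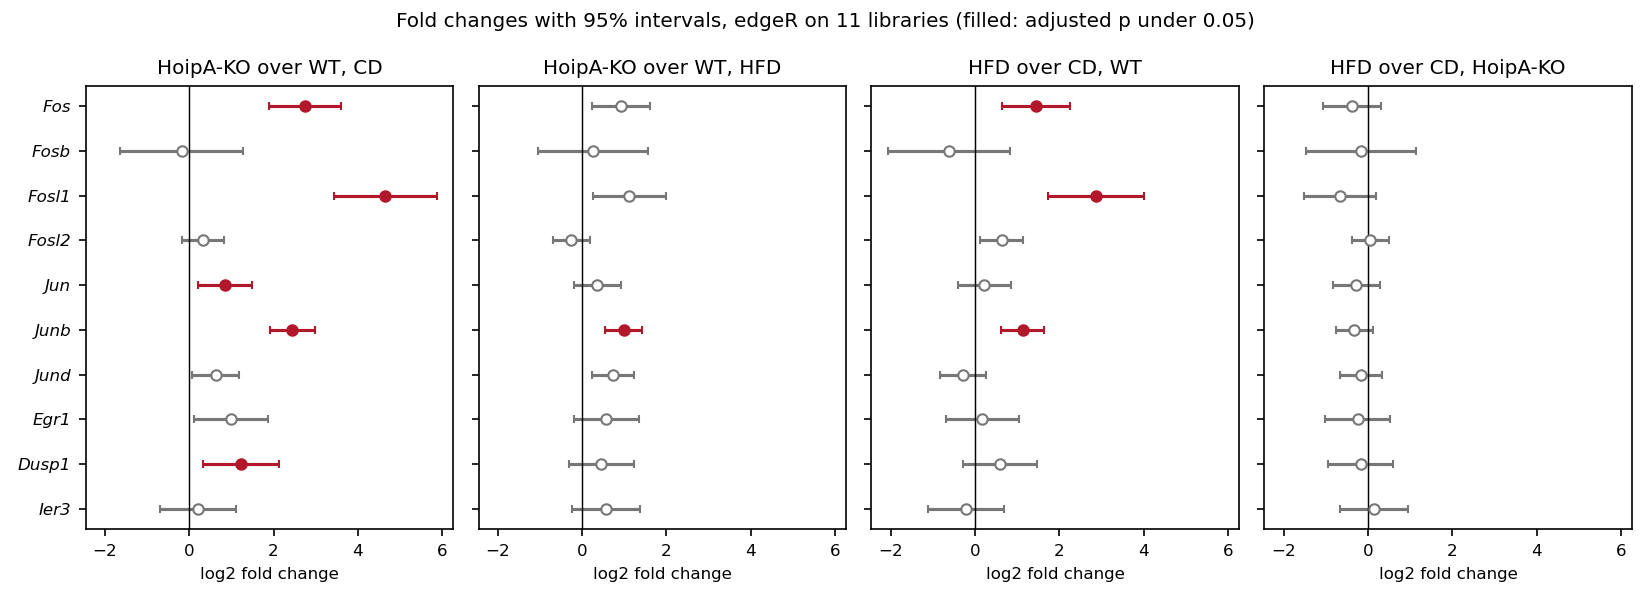
Log2 fold change (x axis) of each gene in 4 comparisons, with its 95% interval (bars) from the edgeR fit of 11 libraries; filled red points passed an adjusted p of 0.05. On CD, 5 genes passed, on HFD only Junb, in WT fed HFD as compared to CD 3 genes, and in HoipA-KO fed HFD as compared to CD 0 genes.

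Markers of some cell types moved with these differences. The summed level of 9 macrophage markers was 428 to 630 CPM in WT CD, 1854 to 5428 CPM in WT HFD, 8878 to 12792 CPM in HoipA-KO CD and 6529 to 10950 CPM in HoipA-KO HFD, with all 9 called higher in HoipA-KO on CD. The 10 adipocyte markers summed to 13497 to 47023 CPM in WT CD and 6274 to 9047 CPM in HoipA-KO CD, and 9 of them were called lower. Mast cell markers summed to 19.9 to 29.8 CPM in WT CD and 545 to 653 CPM in HoipA-KO CD, with 4 of 5 called higher, and progenitor markers to 749 to 1209 and 2825 to 3067 CPM, with 3 of 6 called higher. None of these 4 lists had a marker at 0 in all libraries of a group, and their part in the levels of the 10 members was not tested. Of all genes, 18.9% were called higher and 18.8% lower on CD. In the other lists, 0 of 5 mesothelial markers were called and 1 of 4 neutrophil markers was higher. Of 6 endothelial markers 2 were lower, and of 8 epididymis markers 1 was lower. Of 5 pericyte and smooth muscle markers, 1 was higher and 1 lower. Within WT HFD, the libraries had the same order for Fos, for Junb and for the macrophage sum, with replicate 3 highest in each, and so they had within HoipA-KO HFD, with replicate 2 highest and replicate 1 lowest. Within HoipA-KO CD they did not, since replicate 2 had the highest macrophage sum and the lowest Junb. Nor did they within WT CD, where replicate 2 had the lowest Fos and Junb and replicate 3 the lowest macrophage sum.

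**Figure D3:**
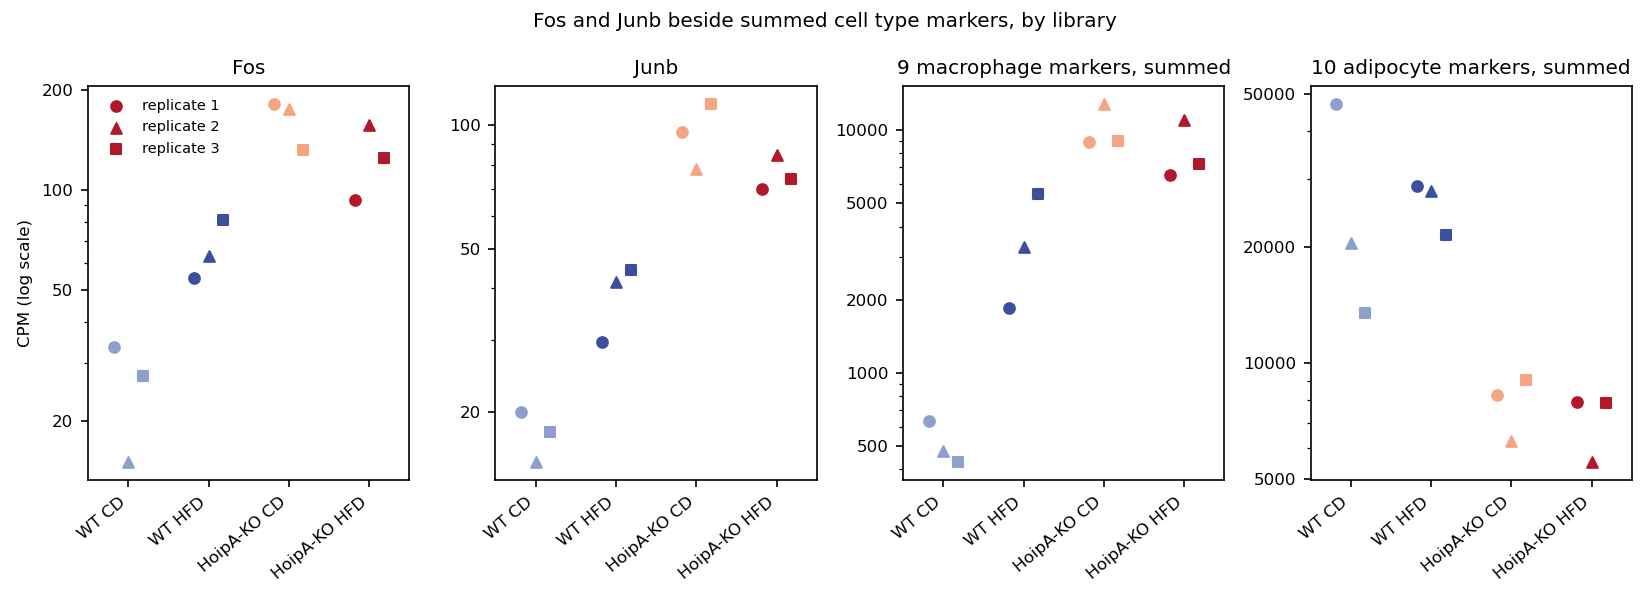
CPM (y axes, log scale) of Fos, of Junb, of 9 summed macrophage markers and of 10 summed adipocyte markers in each library, with symbols for the replicate number. Fos and Junb were lowest in WT CD and highest in the HoipA-KO groups, as was the macrophage sum, while the adipocyte sum was at most 9047 CPM in all 6 HoipA-KO libraries.

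On HFD, Junb was the only member called between genotypes over 11 libraries. It had 29.6, 41.3 and 44.2 CPM in WT HFD and 69.9, 84.5 and 73.8 CPM in HoipA-KO HFD. Junb was 1.98-fold higher, a log2 fold change of 0.99 ± 0.20 over 11 libraries (edgeR adjusted p = 0.0187) and over 12 libraries (edgeR adjusted p = 0.0365). Thus 1 of 10 members was called higher and 0 lower, as compared to 4.2% and 7.62% of all genes, and over 12 libraries again 1 member was called, as compared to 0.598% of all genes called higher. The Junb call was lost without WT HFD replicates 1 or 2 or HoipA-KO HFD replicates 2 or 3, with log2 fold changes of 0.83 to 1.04 and edgeR adjusted p = 0.0695 at most.

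Fos had 54.3, 63.1 and 81.1 CPM in WT HFD and 93.1, 157 and 124 CPM in HoipA-KO HFD, without overlap. Its log2 fold change on HFD was 0.91 ± 0.31 (edgeR adjusted p = 0.0801), and the call was made without WT CD replicate 1 (edgeR adjusted p = 0.0282) or replicate 2 (edgeR adjusted p = 0.0268). Fosl1 had 1.71, 1.87 and 1.99 CPM in WT HFD and 3.06, 5.95 and 3.12 CPM in HoipA-KO HFD, again without overlap. The log2 fold change of Fosl1 was 1.12 ± 0.39 (edgeR adjusted p = 0.0868), and it was called without WT CD replicate 1 (edgeR adjusted p = 0.0353) or replicate 2 (edgeR adjusted p = 0.0304). Jund had 91.0, 115 and 116 CPM in WT HFD and 157, 188 and 191 CPM in HoipA-KO HFD. These groups were separate as well, with a log2 fold change of 0.74 ± 0.22 (edgeR adjusted p = 0.0584), and Jund was called without WT CD replicate 1 (edgeR adjusted p = 0.0421), WT CD replicate 2 (edgeR adjusted p = 0.0341) or HoipA-KO CD replicate 3 (edgeR adjusted p = 0.0324).

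For Jun, the values were 82.0, 79.3 and 83.2 CPM in WT HFD and 93.5, 119 and 102 CPM in HoipA-KO HFD. For Egr1, they were 43.7, 46.7 and 34.4 CPM and 60.3, 62.7 and 63.0 CPM. Neither overlapped between genotypes and neither passed the test, with log2 fold changes of 0.36 (95% interval -0.20 to 0.92) for Jun and 0.57 (95% interval -0.20 to 1.34) for Egr1. In all, 6 members had every HoipA-KO HFD library above every WT HFD library, as did 20.8% of all genes. Dusp1 had 120, 75.0 and 113 CPM in WT HFD and 111, 200 and 112 CPM in HoipA-KO HFD, so that replicate 2 alone stood out in both groups, in opposite directions. Fosb, Fosl2 and Ier3 overlapped between genotypes on HFD, with log2 fold changes of 0.25, -0.26 and 0.56. The median log2 fold change on HFD was 0.57 over the members and 0.058 over all genes. On this diet the macrophage sum was 1854 to 5428 CPM in WT and 6529 to 10950 CPM in HoipA-KO. Of its 9 markers, 2 were called higher, as compared to 4.2% of all genes. The adipocyte sum was 21465 to 28774 CPM in WT and 5530 to 7904 CPM in HoipA-KO. All 10 of its markers were called lower, as compared to 7.62% of all genes. The part of these markers in the difference of Junb was not tested.

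Next, the diets were compared within each genotype. In WT, HFD raised Fos, Fosl1 and Junb. Fos went from 15.1 to 33.6 CPM in WT CD to 54.3 to 81.1 CPM in WT HFD, a log2 fold change of 1.45 ± 0.36 (edgeR adjusted p = 0.0288). Junb rose from 15.1 to 20.0 CPM to 29.6 to 44.2 CPM, a log2 fold change of 1.13 ± 0.23 (edgeR adjusted p = 0.0133). For both genes the 2 diets did not overlap. Fosl1 reached 1.71 to 1.99 CPM on HFD, just above WT CD replicate 3 at 1.66 CPM, and its log2 fold change was 2.87 ± 0.51 without that library (edgeR adjusted p = 0.0085) and 1.35 ± 0.71 with it (edgeR adjusted p = 0.207).

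These 3 of 10 members called higher in WT on HFD compare to 9.35% of all genes called higher and 5.47% called lower, and over 12 libraries to 9.17% called higher, with Fosl2 in place of Fosl1. Fosl2 had 75.3, 54.5 and 61.5 CPM in WT HFD, above all WT CD libraries, with a log2 fold change of 0.63 ± 0.22 over 11 libraries (edgeR adjusted p = 0.0858) and 0.81 ± 0.24 over 12 (edgeR adjusted p = 0.0468). In 4 members, Fos, Fosl1, Fosl2 and Junb, all WT HFD libraries were above all WT CD libraries, as in 17.4% of all genes. The call of Fos was lost without WT CD replicate 2 (log2 0.98, edgeR adjusted p = 0.127), WT HFD replicate 2 (log2 1.48, edgeR adjusted p = 0.0689) or WT HFD replicate 3 (log2 1.19, edgeR adjusted p = 0.0918). That of Junb was lost without WT CD replicate 2 (log2 0.94, edgeR adjusted p = 0.0835) or WT HFD replicate 3 (log2 0.92, edgeR adjusted p = 0.0554). In WT the macrophage sum was also higher on HFD, with all 9 markers called, as were 4 of 5 mast cell markers and 3 of 6 progenitor markers, while 1 of 10 adipocyte markers was called lower, and their part in the rise of Fos, Fosl1 and Junb was not tested. The other 6 members had log2 fold changes between -0.61 for Fosb and 0.60 for Dusp1, none of them called.

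In HoipA-KO, no member was called between the diets. HFD left Fos at 93.1 to 157 CPM as compared to 132 to 182 CPM on CD, and Junb at 69.9 to 84.5 CPM as compared to 78.0 to 113 CPM. The log2 fold changes were -0.39 for Fos (95% interval -1.07 to 0.30), -0.33 for Junb (95% interval -0.77 to 0.11) and -0.66 for Fosl1 (95% interval -1.52 to 0.20). For Fos and Junb, these intervals lie below the WT estimates of 1.45 and 1.13. Those estimates have 95% intervals of their own, 0.64 to 2.25 for Fos and 0.62 to 1.65 for Junb. The difference itself was tested as the interaction given below, which was not called for Fos. By edgeR, 0% of all genes were called higher and 0% lower in this comparison, with 415 genes and 0 members at an unadjusted p under 0.05, and DESeq2 called 7 genes and 0 members. Jun was the only member without overlap, at 93.5 to 119 CPM on HFD below 119 to 135 CPM on CD, as in 2.47% of all genes. The median log2 fold change was -0.21 over the members and -0.015 over all genes.

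The difference between these diet responses was tested as the genotype by diet interaction, on the log2 scale the HFD effect in HoipA-KO minus that in WT. It was called for Fosl1 at -3.53 ± 0.63 (edgeR adjusted p = 0.0256) and for Junb at -1.46 ± 0.30 (edgeR adjusted p = 0.0331). Thus 2 of 10 members had a lower response in HoipA-KO, as compared to 3.58% of all genes, and 0 members a higher one, as compared to 0.331%. Over 12 libraries 1 member was called, as compared to 2.67% of genes, since Junb kept -1.45 ± 0.28 (edgeR adjusted p = 0.0262) whereas Fosl1 had -2.01 ± 0.99 (edgeR adjusted p = 0.267). Fos had -1.83 ± 0.47 (edgeR adjusted p = 0.0643). The calls of Fosl1 and Junb were each lost in 8 of the 11 fits that left out 1 library, with estimates between -4.51 and -2.94 for Fosl1 and between -1.70 and -1.23 for Junb. They held without WT CD replicate 1, WT HFD replicate 1 or HoipA-KO HFD replicate 2 and were lost without any other.

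HoipA-KO on CD was also set against WT on HFD, a contrast of both genotype and diet that shares its libraries with the comparisons above. Fos was 2.46-fold higher in HoipA-KO CD (log2 1.30 ± 0.31, edgeR adjusted p = 0.0248), Fosl1 3.44-fold (log2 1.78 ± 0.40, edgeR adjusted p = 0.0198), Junb 2.49-fold (log2 1.32 ± 0.20, edgeR adjusted p = 0.0101) and Jund 1.88-fold (log2 0.91 ± 0.22, edgeR adjusted p = 0.0263). So 4 of 10 members were called higher, as compared to 6.78% of all genes, and 0 lower, as compared to 9.07%. Over 12 libraries 2 were called, Fos and Junb, as compared to 1.84%. In 7 members all HoipA-KO CD libraries were above all WT HFD libraries, as in 23.6% of all genes, and in 1 member, Fosl2, they were below, at 48.6 to 53.9 CPM as compared to 54.5 to 75.3 CPM. Of these calls, that of Junb held without each library in turn, while each of Fos, Fosl1 and Jund was lost in 4 of 11 such fits, all of which left out a library of these 2 groups. The lowest estimates there were 1.17 for Fos, 1.68 for Fosl1 and 0.65 for Jund. WT CD is not part of this contrast and enters only through the shared estimate of the spread.

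Within the FOS and JUN families, the make-up of the transcripts shifted. Per kilobase, Fos made up 64.7 to 72.9% of the FOS-family level in WT CD, 71.1 to 81.8% in WT HFD, 85.7 to 89.5% in HoipA-KO CD and 82.6 to 88.3% in HoipA-KO HFD, so that all HoipA-KO libraries lay above all WT ones. Fosl2 fell back accordingly, from 17.0 to 32.0% in WT CD to 6.37 to 7.68% in HoipA-KO CD, while its own mean was 36.4 ± 13.7 CPM in WT CD and 51.4 ± 2.67 CPM in HoipA-KO CD. Fosl2 was called higher on CD in 2 of 21 alternatives, both without WT CD replicate 1, with log2 fold changes of 0.74 and 0.85. Among the JUN genes, Junb made up 6.55 to 9.76% in WT CD, 13.8 to 16.7% in WT HFD, 19.4 to 23.1% in HoipA-KO CD and at most 19.7%, with a median of 19.6%, in HoipA-KO HFD. The share of Jun was 15.9 to 23.3% in WT CD and 16.9 to 22.4% in HoipA-KO CD, which overlapped, whereas on HFD it was 22.3 to 27.6% in WT and 17.8 to 19.9% in HoipA-KO, without overlap. Jund remained the largest part in each library at 56.3 to 76.3%. Shares of a family sum to a fixed total, hence a rise in 1 member lowers the share of the others.

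**Figure D4:**
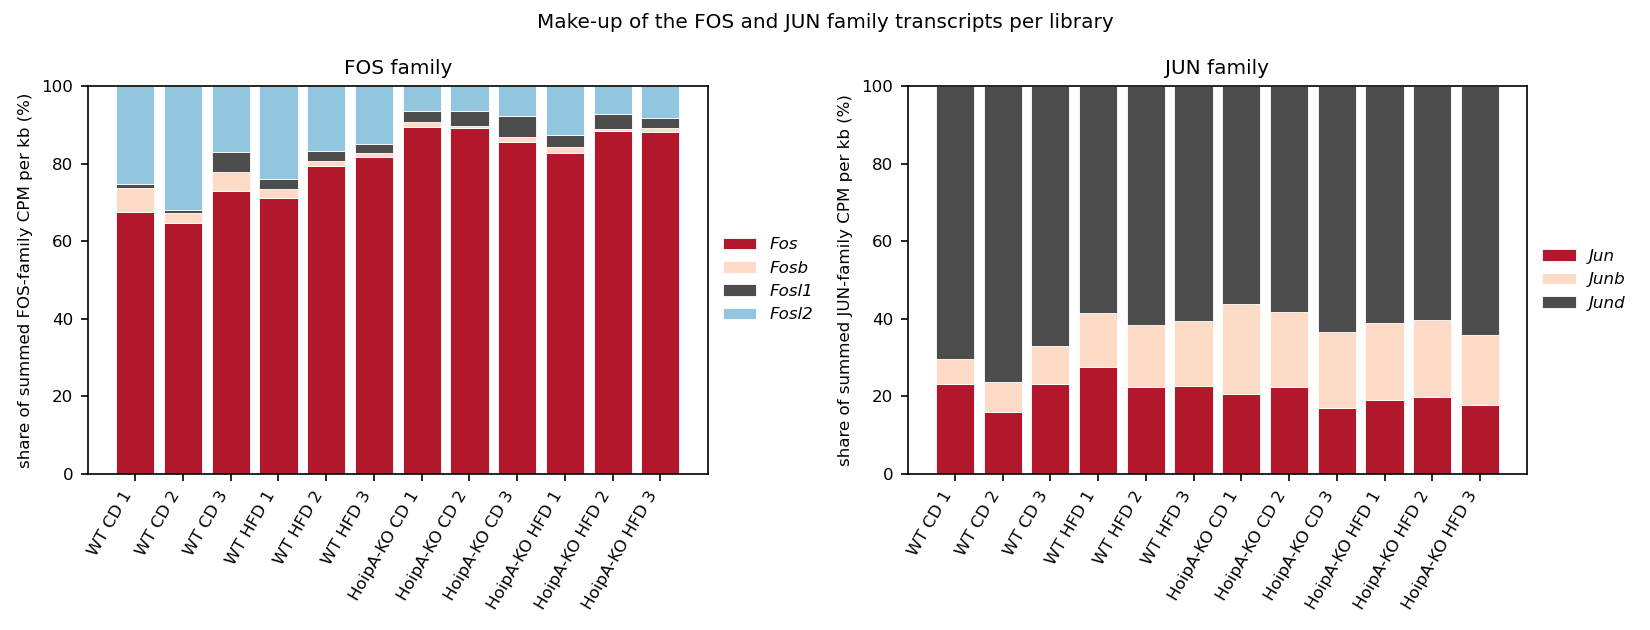
Share (y axis, percent) of each member in the summed CPM per kb of exon of the FOS family (left) and the JUN family (right), 1 bar per library. Fos and Junb took a larger share in each HoipA-KO library than in any WT CD library, while Jund was the largest part of the JUN family in all 12.

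The same pathway was followed through 6 lists of other genes, 115 in all, of which 114 were tested. These lists, too, were chosen with earlier results of these data known. On CD, 12 of 34 other immediate early genes were called higher in HoipA-KO and 0 lower, as compared to 18.9% and 18.8% of all genes, with a median log2 fold change of 0.63. Among those with a mean of at least 1 CPM, the largest rises were those of Egr2, a relative of Egr1, from 1.79 to 8.72 CPM in WT CD to 49.4 to 68.6 CPM in HoipA-KO CD (log2 3.40 ± 0.57, edgeR adjusted p = 0.00196), of the stress-induced kinase gene Plk2 (log2 2.67 ± 0.36, edgeR adjusted p = 0.00079) and of Gadd45b, an activator of stress kinases (log2 2.39 ± 0.38, edgeR adjusted p = 0.00142). Of 13 leucine zipper genes whose products can pair with AP-1 proteins or bind related sites, 8 were called higher and 0 lower. Atf3, a stress-induced factor that pairs with JUN proteins, went from 3.31 to 8.59 CPM in WT CD to 285 to 388 CPM in HoipA-KO CD (log2 5.53 ± 0.67, edgeR adjusted p = 0.00053). In WT HFD it had 38.3, 86.7 and 173 CPM, a spread larger than in any other group. Batf, which pairs with JUN proteins in immune cells, had a log2 fold change of 2.86 ± 0.30 (edgeR adjusted p = 0.00045).

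Of 14 MAPK phosphatases and ERK inhibitors, 5 were called higher in HoipA-KO on CD and 2 lower, beside the 18.9% and 18.8% of all genes. Spred1, an inhibitor of RAS-ERK signaling, had a log2 fold change of 2.00 ± 0.37 (edgeR adjusted p = 0.00288), Dusp2 1.58 ± 0.55 (edgeR adjusted p = 0.0475) and Dusp9 1.54 ± 0.49 (edgeR adjusted p = 0.0335), and Dusp2 was not called over 12 libraries. Dusp10 and Dusp16, phosphatases of JNK and p38, were lower at -1.49 ± 0.52 (edgeR adjusted p = 0.0459) and -0.97 ± 0.18 (edgeR adjusted p = 0.00313). Of 26 MAP kinases and upstream nuclear factors, 9 were higher and 3 lower, against the same shares of all genes. Mrtfa and Mrtfb, coactivators of serum response factor, had log2 fold changes of 2.01 ± 0.27 (edgeR adjusted p = 0.00069) and 1.04 ± 0.25 (edgeR adjusted p = 0.0110), and Map3k8, a kinase upstream of ERK in macrophages, 1.64 ± 0.23 (edgeR adjusted p = 0.00089). The JNK genes Mapk8 and Mapk9 were lower at -0.45 ± 0.13 (edgeR adjusted p = 0.0222) and -0.93 ± 0.27 (edgeR adjusted p = 0.0229), as was Map3k5, an upstream kinase of JNK and p38, at -0.63 ± 0.15 (edgeR adjusted p = 0.0110). Over 12 libraries Mapk9 and Map3k5 were not called. Mapk9 had 151 CPM in WT CD replicate 2, the library with epididymal transcripts, and 76.6 and 68.5 CPM in replicates 1 and 3. In HoipA-KO CD it had 59.4, 71.2 and 48.6 CPM, so that replicate 2 there lay above WT CD replicate 3.

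Of 16 known AP-1 target genes, 12 were called higher on CD and 0 lower, as compared to 18.9% and 18.8% of all genes. Their median log2 fold change was 3.61, as compared to -0.055 over all genes. Timp1, an inhibitor of matrix metalloproteases, went from at most 2.69 CPM in WT CD to 39.1 to 74.5 CPM in HoipA-KO CD (log2 4.84 ± 0.46, edgeR adjusted p = 0.00045). Spp1, which encodes osteopontin, and Cd44, one of its receptors, had log2 fold changes of 5.16 ± 1.24 (edgeR adjusted p = 0.0103) and 4.72 ± 0.60 (edgeR adjusted p = 0.00060). Macrophages also express Spp1 and Cd44, and the macrophage sum given above was higher in HoipA-KO CD as well. Its part in these rises was not tested. Heat shock genes, which respond to stress and to handling of tissue, were called in 3 of 11 cases higher and in 3 lower, near the 18.9% and 18.8% of all genes. Bag3, Hsph1 and Hspa8 had log2 fold changes of 1.20, 1.11 and 0.77, and Hspd1, Dnajb1 and Dnaja1 of -0.69, -0.59 and -0.47. Over 12 libraries Hsph1 (edgeR adjusted p = 0.0524) and Hspd1 (edgeR adjusted p = 0.314) were not called, and Dnajb1 had a log2 fold change of -1.46. The summed level of the 11 genes was 2459 to 2853 CPM in WT CD and 3057 to 4018 CPM in HoipA-KO CD. Hspa8 was the most abundant of them in every group, at 718 to 1325 CPM in WT CD and 1985 to 2673 CPM in HoipA-KO CD. Within WT CD the sum did not follow Hspa8, since replicate 3 had the lowest Hspa8, at 718 CPM, and the highest sum, at 2853 CPM. Of the 11 genes, 5 were not called.

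On HFD, 11 of the 114 genes were called between genotypes as compared to 57 on CD. All genes had fewer calls on HFD as well, with 4.2% higher and 7.62% lower as compared to 18.9% and 18.8% on CD. The HFD share of the lists, both directions together, was not above that of all genes. By direction they differed, since Map3k5 was the only list gene called lower, whereas more of all genes were lower than higher. Other immediate early genes contributed Gadd45a (log2 0.87 ± 0.18, edgeR adjusted p = 0.0216) and Myc (log2 0.87 ± 0.22, edgeR adjusted p = 0.0354), both higher in HoipA-KO. Batf was again higher (log2 1.19 ± 0.24, edgeR adjusted p = 0.0199), as were Mrtfa (log2 0.85 ± 0.22, edgeR adjusted p = 0.0394) and Dusp5, an inducible ERK phosphatase (log2 2.18 ± 0.56, edgeR adjusted p = 0.0377). Map3k5 was again lower (log2 -0.71 ± 0.14, edgeR adjusted p = 0.0170). Of the AP-1 targets, 4 of 16 were higher, among them the gelatinase gene Mmp9 (log2 2.81 ± 0.62, edgeR adjusted p = 0.0242), the heme oxygenase gene Hmox1 (log2 1.61 ± 0.42, edgeR adjusted p = 0.0401) and Timp1 (log2 1.34 ± 0.33, edgeR adjusted p = 0.0343). HoipA-KO HFD replicate 1 had 53.5 CPM of Dusp5 and 37.7 CPM of Mmp9, as compared to 17.8 to 20.0 and 6.87 to 10.2 CPM in the other libraries of its group. Bag3, of the heat shock genes, completed the list (log2 0.67 ± 0.19, edgeR adjusted p = 0.0476). Over 12 libraries, only Batf and Mmp9 of these genes were called on HFD. In WT, 19 of the 114 genes were called higher and 3 lower on HFD as compared to CD, beside 9.35% and 5.47% of all genes, and in HoipA-KO 0 by edgeR over 11 or 12 libraries and by DESeq2.

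**Figure D5:**
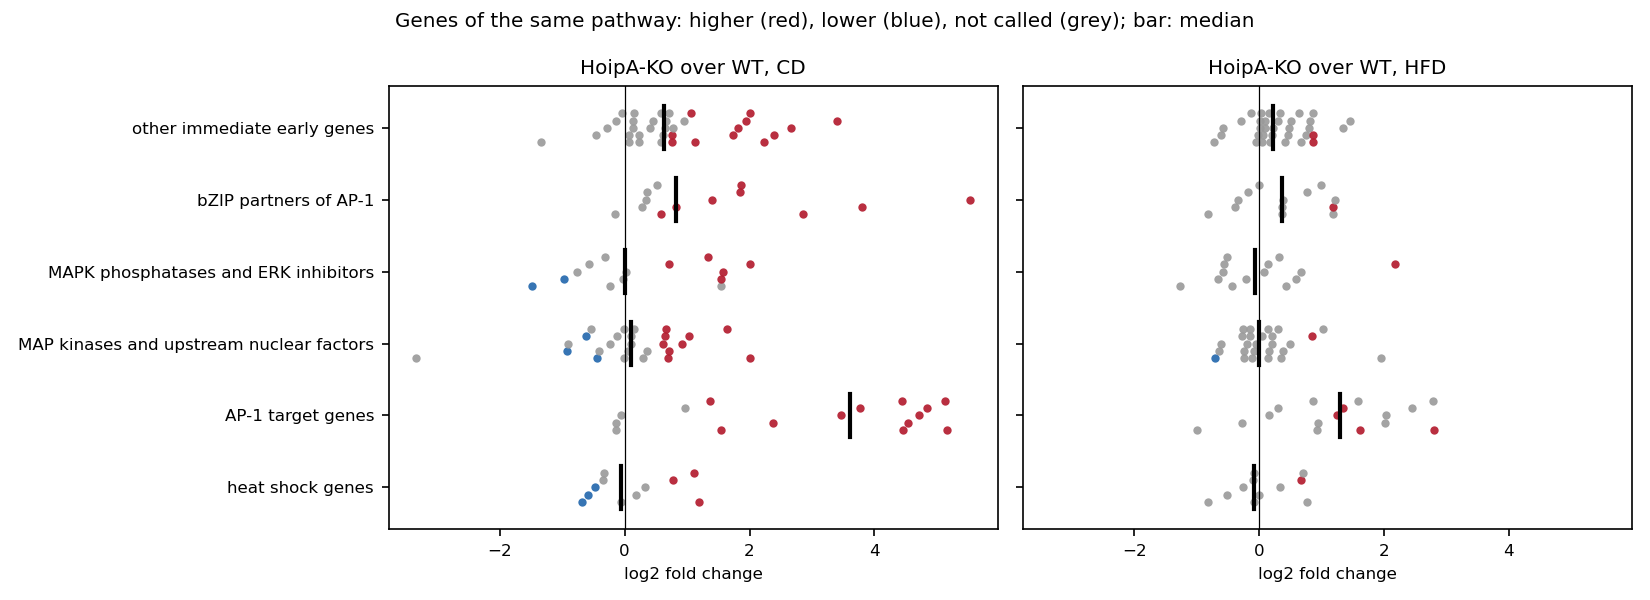
Log2 fold change (x axis) of the 114 tested genes of 6 lists in HoipA-KO over WT on CD (left) and on HFD (right), 1 point per gene, with the list median as a bar; red and blue points were called higher and lower. The AP-1 targets had a median of 3.61 on CD and 1.29 on HFD, and 57 genes were called on CD as compared to 11 on HFD.

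The members did not share 1 pattern across the libraries. Likeness was measured as the root mean square difference of centred log2(CPM + 1) over the 12 libraries, among 15778 other genes with a mean of at least 1 CPM. The nearest genes to Fos were Serpinb6a, Galns and Ugt1a7c, at 0.19 to 0.23, and the nearest member was Junb at 0.31, ranked 53. For Junb, they were Crlf2, Smim29 and Igsf8, at 0.14 to 0.18, and Fos ranked 118. Agpat4 and Dna2 were among the genes nearest to Fosl1, with Junb ranked 63. Jun was nearest to Mapk3, Flcn and Map2k3, and Jund to Bri3, Ap2s1 and Gm10275. The nearest genes to Egr1 were Osr1, Lgals2 and Gas6, with Jun ranked 9, the closest rank between members. Dusp1 was nearest to Zc3h12a, Gm10134 and Tnfaip3, and Jun ranked 45. Fosb was nearest to Cdc42ep5, Igf2 and Gata6, Ier3 to Gm48878, Gata5 and Sv2a, and Fosl2 to Lrch1, Map4k4 and Il6st, where the nearest other member, Jun, ranked 3148.

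Several members varied more between pools of the same group than most genes did. The within-group SD of log2(CPM + 1) over 11 libraries was 0.65 for Fosb, larger than in 92.2% of 14923 genes with at least 1 CPM. It was 0.47 for Dusp1 and for Egr1, 0.43 for Ier3 and 0.41 for Fos, larger than in 78.7 to 84.1% of genes. Junb and Fosl2 each had 0.25, close to the median of 0.25 over all genes. Among the genes with a large spread, WT CD replicate 2 was the lowest of its group in Fos, Fosb, Egr1 and Dusp1 and replicate 1 the highest. The depth of 78 counts or more per library for Fosb leaves counting error well below this spread.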

How the data were processed

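Bulk RNA sequencing libraries (poly-A, stranded) were made from GWAT, each from tissue pooled from 3 mice. The authors trimmed reads with Trim Galore 0.6.7, aligned them with STAR 2.7.10a and deposited estimated counts per gene from Salmon 1.5.2, without normalization, for all genes and for protein-coding genes. The labels give GRCm38 as the genome build, whereas the methods print GRCh38. The authors also deposited tables of DESeq2 comparisons (fold changes, p-values and CPM), which were not used. Labels do not tie replicate numbers to separate cohorts, and p-values measure the spread between pools. Same-numbered HoipA-KO CD and HoipA-KO HFD libraries deviated together (r of 0.16, 0.53 and 0.30), a pairing read from the data.

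Estimated counts were rounded, low genes were dropped with filterByExpr, library sizes were scaled by TMM, and genes were fitted in 1 model of 4 groups with edgeR 4.0.16 (quasi-likelihood test, prior count 0.125) in R 4.3.3, over 11 libraries without WT CD replicate 3. P-values were Benjamini-Hochberg adjusted over all genes tested, at 0.05. CPM values in the text were TMM-normalised over 12 libraries, standard errors come from the model, and a floor of 3 counts covers counting error only. Tests were checked on simulated data. Alternatives were DESeq2 1.42.0, its size factors, no filter, protein-coding genes, all 12 libraries, other pairs of WT CD libraries, a replicate block, only the groups compared, and leaving out each library, to which a replicate block in all 12 libraries was added after the data were seen.

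The members and gene lists were chosen with earlier results of these data known, and the lists were written from general knowledge. Genes named beside the members are the 3 largest rises and falls past the threshold in each list with a mean of at least 1 CPM, and the 3 genes nearest to each member. Some genes that this rule selects are not reported here.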

Additional observations from a re-analysis of the deposited data

Results flagged for a closer look

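By the interaction term of the edgeR fit over 11 libraries, the effect of HFD differed between the genotypes in 2 of the 10 genes. Both had a lower response in HoipA-KO, as compared to 3.58% of all genes called lower and 0.331% called higher. For Fosl1 the interaction was -3.53 on the log2 scale (edgeR adjusted p = 0.0256), with 5.12 to 7.16 CPM in HoipA-KO CD and 3.06 to 5.95 CPM in HoipA-KO HFD, as compared to 0.128 to 1.66 CPM in WT CD and 1.71 to 1.99 CPM in WT HFD. For Junb it was -1.46 (edgeR adjusted p = 0.0331), with 78.0 to 113 and 69.9 to 84.5 CPM in HoipA-KO, as compared to 15.1 to 20.0 and 29.6 to 44.2 CPM in WT. The call of Junb was lost with a replicate block and without any library of HoipA-KO CD, among others. Without HoipA-KO CD replicate 3, the interaction of Junb was -1.23. The value of Fosl1 rests on WT CD replicates 1 and 2, with 16 and 6 counts, and was -2.01 with WT CD replicate 3 (edgeR adjusted p = 0.267).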

How the results depend on the processing

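In the main tests, 5 members were called between genotypes on CD, 1 on HFD, 3 between diets in WT, 0 between diets in HoipA-KO, 4 between HoipA-KO CD and WT HFD and 2 in the interaction. Leaving out 1 library at a time gave 3 to 8, 0 to 4, 1 to 6, 0, 1 to 6 and 0 to 5 members in the same order, and with 1 WT CD library left its spread is assumed to be that of the other groups. With WT CD replicates 2 and 3 as the WT CD group, 8 members were called on CD, 5 between diets in WT and 5 in the interaction. With replicates 1 and 3, 2 were called between HoipA-KO CD and WT HFD and 0 in the interaction, and over all 12 libraries 2 and 1. With only the groups compared in the fit, 3 members were called on CD, 4 on HFD and 0 between diets in WT. The share of all genes called is not given for fits without a library, with other WT CD pairs, with a replicate block or with only the groups compared. The counts of members in those fits therefore cannot be set against all genes. On HFD, DESeq2 called 4 members and its size factors in edgeR gave 2. Of the gene lists, DESeq2 called 31 of 114 genes on HFD, as compared to 11, and 39 between diets in WT, as compared to 22. DESeq2 also called more of all genes, with 4455 on HFD and 4551 between diets in WT. By edgeR, 774 were higher and 1405 lower on HFD, and 1723 higher and 1008 lower between diets in WT. Over 12 libraries, edgeR called 2 of 114 list genes on HFD, beside 0.598% of all genes called higher and 2.3% lower. Of the 30 nearest genes, 13 were kept with 11 libraries and 23 with a pseudocount of 0.1. No filter and protein-coding genes alone left each count of members within 1.5 times. The causes of these changes were not tested.

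The deviations of same-numbered libraries correlated with r of -0.33 to 0.53 over the 4 groups, with 6 of 18 pairs over 0.1 and 7 of 12 libraries closest to one of their own number. Between HoipA-KO CD and HoipA-KO HFD all 3 pairs were over 0.1 (0.16, 0.53 and 0.30), a hint of pairing there, and the block left 0 members called between these diets. Between the other groups compared, not every pair was. With a replicate block, 3 members were called on CD and 0 in the interaction, and Fosb on CD had a log2 fold change of 0.049. With the block in all 12 libraries, 1 member was called between HoipA-KO CD and WT HFD and 0 in the interaction, and the interaction of Jund was -0.024.

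The sign turned in 28 cases, none of them called under either setting. Without 1 library, the log2 values of Fosb ranged from -0.92 to 1.41 on CD, from -1.36 to 0.99 between diets in WT, from -0.51 to 0.12 between diets in HoipA-KO and from -1.16 to 1.18 in the interaction. Those of Egr1 ranged from -0.35 to 1.02 between diets in WT, -0.46 to 0.12 in HoipA-KO and -1.26 to 0.10 in the interaction, and those of Jund from -0.54 to 0.027, -0.28 to 0.089 and -0.20 to 0.46. For Ier3 they were -0.026 to 0.46 on CD, -0.70 to 0.053 between diets in WT and -0.17 to 0.29 in HoipA-KO, for Fosl2 -0.013 to 0.74 on CD and -0.010 to 0.12 between diets in HoipA-KO, and for Jun -0.26 to 0.96 between diets in WT. With WT CD replicates 2 and 3, Fosb had 0.41 on CD and -0.17 in the interaction, Jund -0.33 in the interaction and 0.16 between diets in WT, and Ier3 0.066 between diets in WT. With replicates 1 and 3, Egr1 had -0.11 between diets in WT, and over all 12 libraries the interaction of Jund was -0.047.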
